A study of Mus musculus with 9 samples.

Results

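The 10 genes described here encode the enzymes that build branched, sialylated and fucosylated O-glycans in T cells and a pair of the membrane mucins that carry them. They were chosen by symbol (Gcnt1, Fut7, St3gal1, St3gal4, St3gal6, C1galt1, C1galt1c1, B4galt1, Selplg and Spn) with the difference between LSD1 inhibitor-treated and untreated cells already known, so their values in that comparison are a description and not a test. They lie on chromosomes 19 (Gcnt1), 2 (Fut7), 15 (St3gal1), 9 (St3gal4), 16 (St3gal6), 6 (C1galt1), X (C1galt1c1), 4 (B4galt1), 5 (Selplg) and 7 (Spn). All 10 were found among the 24391 gene symbols of the count tables, and all 10 passed the low-count filter. RNA was sequenced from mouse CD8+ T cells after 72 h of activation in medium with interleukin 2 at 100 U/mL. The 4 LSD1i libraries came from cells activated with an inhibitor of LSD1, the histone demethylase encoded by Kdm1a, and the 5 NT libraries from cells activated without it. Mouse strain, age, inhibitor name and dose are not given in the labels, and neither is the source of a replicate (an animal or a culture). The spread behind each p-value is therefore that between libraries and may be technical.

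An O-glycan starts when a GalNAc sugar is placed on serine or threonine of a protein. C1galt1 adds galactose to make core 1, and C1galt1c1 (Cosmc) is the chaperone it needs. Core 1 can then be capped with sialic acid by St3gal1, or branched by Gcnt1 into core 2, the form on which longer chains grow. B4galt1 adds galactose to such chains, St3gal4 and St3gal6 sialylate their ends and Fut7 adds the fucose that completes sialyl Lewis X. Carried on PSGL-1 (Selplg), this sugar lets T cells roll on P- and E-selectin. CD43 (Spn) is the other abundant mucin of T cells, and its core 2 form is a known marker of activated CD8+ T cells.

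Raw libraries held 15163983 to 29245278 counted reads. The authors deposited raw and batch-corrected counts, and the 2 tables swap the group names of 4 libraries. The corrected table's LSD1i 1 is NT 1 in raw counts, its LSD1i 2 is NT 2, its NT 1 is LSD1i 1 and its NT 2 is LSD1i 2. The labels do not say which set is right. Every direction below follows the corrected table's names. Levels are CPM, counts scaled to library size, from that table unless raw values are named. Gcnt1 shows what is at stake. Its raw reads numbered 315 in LSD1i 1 and 290 in LSD1i 2 by these names, against 52 in NT 1 and 39 in NT 2. In the 5 libraries named alike it had 379 and 498 reads in LSD1i 3 and 4, against 57, 49 and 138 in NT 3, 4 and 5. Under the raw table's names, raw counts were fitted by group alone, without a term for the batches named below. There edgeR's quasi-likelihood test called 0 of the 10 genes and 0% of all tested genes (1.44% at an unadjusted p under 0.05). The log2 fold change of Gcnt1 was 0.57 ± 0.80 (SE). No fit with these names and a batch term was made, so the effect of the names alone was not tested. The libraries were also split into 2 batches by replicate number, replicates 1 and 2 (first) against replicates 3 to 5 (second). The labels give no batches, so this split is an assumption of the fits. How the authors' correction shifted the 2 sets is given below.

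Markers of the labelled cell type were abundant. The 7 CD8 T cell markers that could be matched summed to 2115 to 2277 CPM in LSD1i and 1864 to 2087 in NT, and 1 of them, Cd8a, was called higher in LSD1i. Cd4 itself never exceeded 5 counts, while the list of 5 CD4 and regulatory T cell markers it belongs to summed to 64.2 to 72.9 CPM in LSD1i and 65.8 to 78.6 in NT, with 0 of its 3 tested genes called. Further, the 9 matched myeloid and neutrophil markers, from cells also rich in selectin ligands, summed to 0.334 to 0.570 CPM in LSD1i and 0.264 to 0.607 in NT, with S100a8, S100a9 and Elane at 0. In bulk RNA, fewer expressing cells and less RNA per cell cannot be told apart.

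Gcnt1 carries the largest difference among the 10 genes, so the windows around its start sites are printed here, each with 250 bases before and 50 after an annotated start (RefSeq, GRCm38.p6, minus strand of chromosome 19). The counts were made on mm9, and they do not show which start is used. The first window, furthest upstream, is chr19:17372795-17373094, the middle one chr19:17356618-17356917 and the last chr19:17339456-17339755. Capitals mark AAATCA, the core of the site bound by GFI1, a repressor that recruits LSD1, searched on both strands.
Gcnt1 upstream start: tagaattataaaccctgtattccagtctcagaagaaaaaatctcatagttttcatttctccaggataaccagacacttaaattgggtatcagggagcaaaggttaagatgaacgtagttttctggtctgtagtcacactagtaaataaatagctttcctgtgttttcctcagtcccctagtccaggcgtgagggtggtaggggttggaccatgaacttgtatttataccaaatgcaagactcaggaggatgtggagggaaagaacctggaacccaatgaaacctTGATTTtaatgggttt
Gcnt1 middle start: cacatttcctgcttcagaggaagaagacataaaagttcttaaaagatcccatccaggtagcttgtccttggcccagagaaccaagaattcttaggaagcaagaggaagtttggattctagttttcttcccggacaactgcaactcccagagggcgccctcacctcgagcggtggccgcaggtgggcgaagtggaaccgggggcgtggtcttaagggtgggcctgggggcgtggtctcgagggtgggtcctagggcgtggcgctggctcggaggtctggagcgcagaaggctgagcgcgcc
Gcnt1 inner start: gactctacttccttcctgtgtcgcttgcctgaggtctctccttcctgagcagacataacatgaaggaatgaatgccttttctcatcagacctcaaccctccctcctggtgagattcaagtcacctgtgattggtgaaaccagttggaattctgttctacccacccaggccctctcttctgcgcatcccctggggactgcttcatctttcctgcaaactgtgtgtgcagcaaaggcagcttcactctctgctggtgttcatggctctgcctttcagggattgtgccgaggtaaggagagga
The windows differ in composition, the middle one having 16 CpG dinucleotides and the upstream and inner ones 2 and 3, beside a median of 7 over all 32851 promoter windows of this length. AAATCA occurred once in them, in the upstream window, on the opposite strand and beginning 34 bases after the start. It was present in 14.0% of all promoter windows. GGTGTGA, a site for T-box factors such as T-bet and Eomes, was found in 0 of the 11 windows available for 7 of the 10 genes, and in 3.98% of all windows. Neither motif was found in the 2 windows of Fut7. AAATCA was also found in 1 of the 2 windows of St3gal6. These are matches of letters and say nothing of binding.

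Of the 10 genes, Gcnt1, the branching enzyme, had the largest log2 fold change. In edgeR's quasi-likelihood test over all genes, 2 of the 10 genes were called, both higher in LSD1i (Gcnt1 and Fut7), where 2.15% of the 11981 tested genes were called higher and 3.31% in either direction. Because the genes were picked with this comparison known, nothing is read from that count. The log2 fold change was above 0 for 9 of the 10, against 45.6% of all tested genes. The median log2 fold change of the 10 was 0.26, against −0.02 over all tested genes.

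Gcnt1 was at 24.7, 17.5, 19.0 and 19.8 CPM in LSD1i 1 to LSD1i 4, against 2.17, 3.56, 2.42, 2.33 and 4.49 in NT 1 to NT 5. Every LSD1i library lay far above every NT library, and NT 5 was the highest of the NT libraries. The means were 20.3 ± 3.09 CPM in LSD1i (SD, n = 4) and 2.99 ± 1.00 in NT (n = 5), a ratio of 6.77 and a log2 fold change of 2.76 ± 0.21 (SE). In raw counts within the batches the log2 fold change was 2.84 ± 0.26 for replicates 1 and 2 and 2.57 ± 0.35 for replicates 3 to 5. Leaving out any 1 library gave 2.66 to 2.98. The authors' deposited table lists Gcnt1 at 2.77 and marks it UP.

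The enzymes just before branching differed little between treated and untreated cells. C1galt1, the core 1 synthase, ranged over 35.3 to 37.5 CPM in LSD1i and 32.0 to 36.8 in NT, with a log2 fold change of 0.08 ± 0.08. C1galt1c1, its chaperone, ranged over 12.4 to 15.3 CPM in LSD1i and 9.99 to 12.7 in NT (0.23 ± 0.11). The groups overlapped for both genes and neither was called. Per kilobase of exon (GENCODE M21 lengths, an annotation other than the authors'), Gcnt1 had 3.52 ± 0.536 CPM in LSD1i and 0.520 ± 0.174 in NT. C1galt1 had 5.94 ± 0.175 CPM per kilobase in LSD1i and 5.63 ± 0.330 in NT. On this scale the Gcnt1 level thus lay below that of C1galt1 in LSD1i as well as in NT cells, but much closer to it in LSD1i.

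**Figure D1:**
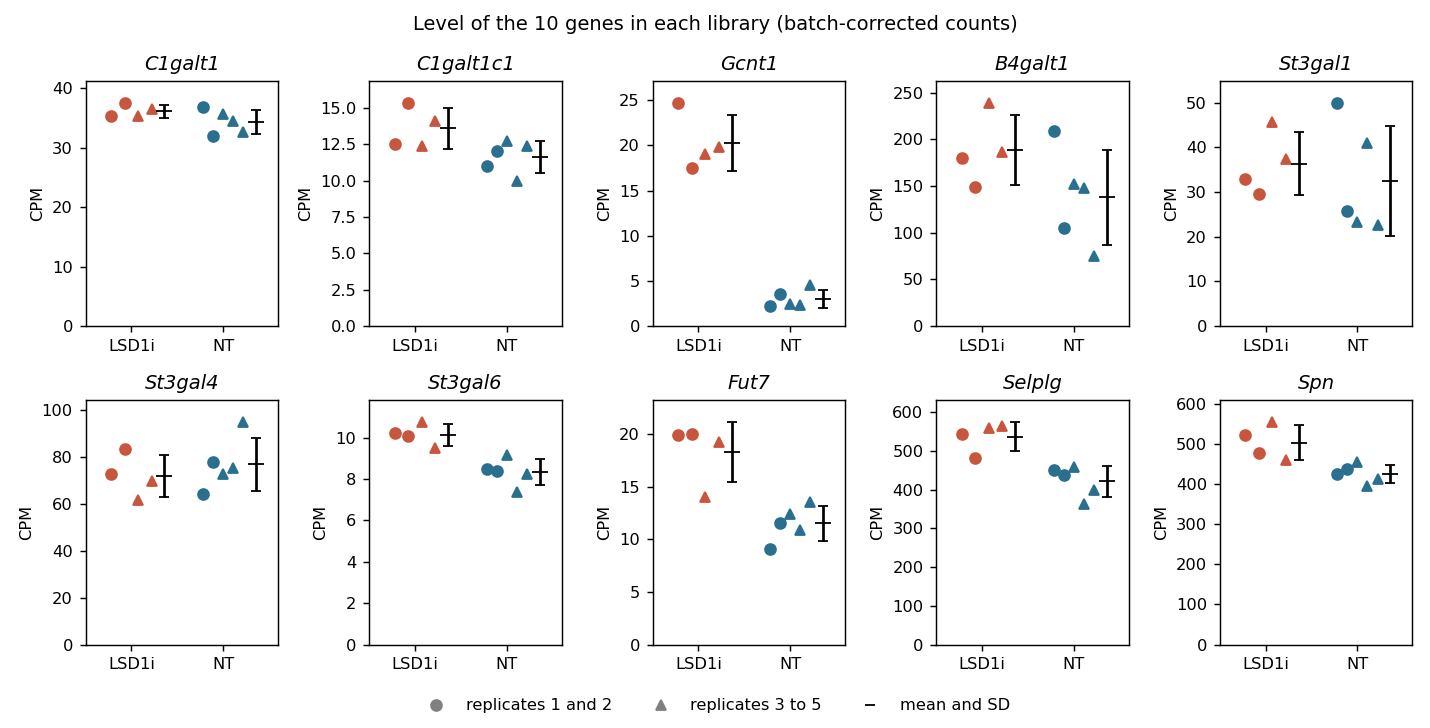
CPM of each of the 10 genes (vertical axes, from 0) in the 4 LSD1i and 5 NT libraries of the batch-corrected table, with circles for replicates 1 and 2, triangles for replicates 3 to 5, and bars for the mean and SD of each group. Gcnt1 lies at 17.5 to 24.7 CPM in LSD1i and 2.17 to 4.49 in NT, while St3gal1, St3gal4 and B4galt1 overlap widely.

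Fut7, which adds the last sugar of sialyl Lewis X, was at 19.9, 20.1, 14.0 and 19.2 CPM in LSD1i 1 to LSD1i 4, against 9.11, 11.6, 12.5, 10.9 and 13.6 in NT 1 to NT 5. The groups did not overlap, but LSD1i 3 stood only just above NT 5. The means were 18.3 ± 2.87 CPM in LSD1i and 11.5 ± 1.68 in NT (SD, n = 4 and 5), with a log2 fold change of 0.67 ± 0.14. In raw counts the estimate was 1.12 ± 0.23 for replicates 1 and 2 and 0.51 ± 0.14 for replicates 3 to 5. The difference between these batches was not called (edgeR interaction test given below, adjusted p = 0.764). The call of Fut7 was lost without LSD1i 1, LSD1i 2, LSD1i 4, NT 2 or NT 4 (adjusted p up to 0.0918). Under the raw table's names, without a term for batch, its log2 fold change was −0.28 ± 0.30. The authors' deposited table lists Fut7 at 0.68 with a false discovery rate of 0.0173 and does not mark it. There, 1.92% of rows have a rate under 0.05 and 0.688% are marked, and no row marked has an absolute log2 fold change under 1.20.

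None of the 3 sialyltransferases among the 10 genes, which compete with Gcnt1 or act after it, was called. St3gal6, which sialylates chain ends, was at 10.2, 10.1, 10.8 and 9.49 CPM in LSD1i 1 to LSD1i 4, against 8.50, 8.37, 9.14, 7.40 and 8.23 in NT 1 to NT 5. The groups did not overlap, by a small margin, and the log2 fold change of 0.28 ± 0.10 was not called. St3gal6 shares 1603 exon bases with Dcbld2 on the opposite strand. Dcbld2 was at 4.45 to 6.73 CPM in LSD1i and 3.16 to 5.07 in NT, and as no source says that reads were counted by strand, those of the pair cannot be told apart. St3gal4, with the same chain-end activity, ranged over 61.6 to 83.2 CPM in LSD1i and 64.0 to 94.9 in NT. Its log2 fold change of −0.10 ± 0.12 was the only 1 of the 10 below 0, and it was 0.16 in the first batch and −0.28 in the second. St3gal4 likewise shares 412 exon bases with 4930581F22Rik on the opposite strand, which was at 5.98 to 8.93 CPM in LSD1i and 7.11 to 9.99 in NT.

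St3gal1, the enzyme that caps core 1 and so removes the acceptor of Gcnt1, varied more between libraries of a group than between the groups. It was at 32.8, 29.5, 45.6 and 37.4 CPM in LSD1i 1 to LSD1i 4, against 49.8, 25.7, 23.3, 40.8 and 22.7 in NT 1 to NT 5. NT 1 was the highest of all 9 libraries and NT 5 the lowest. The log2 fold change was 0.16 ± 0.24, and in raw counts it was −0.49 ± 0.38 in the first batch and 0.46 ± 0.16 in the second. Per kilobase of exon, St3gal4 was the most abundant of these 3 sialyltransferases, with 24.6 CPM in LSD1i and 26.3 in NT. St3gal1 followed with 5.30 CPM per kilobase in LSD1i and 4.74 in NT, and St3gal6 with 1.64 in LSD1i and 1.35 in NT.

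B4galt1, the galactosyltransferase that extends core 2 branches, also had a wide spread. It was at 180, 149, 239 and 186 CPM in LSD1i 1 to LSD1i 4, against 209, 105, 152, 148 and 74.5 in NT 1 to NT 5. NT 5 was again the lowest library, and NT 1 lay above 3 of the 4 LSD1i libraries. Its coefficient of variation was 19.7% in LSD1i and 37.1% in NT. For Gcnt1 it was 15.2% in LSD1i and 33.5% in NT. For St3gal1 it was 19.2% in LSD1i and 37.6% in NT, and for C1galt1 2.95% in LSD1i and 5.85% in NT. The log2 fold change of B4galt1 was 0.45 ± 0.25, not called, with 0.07 ± 0.32 in the first batch and 0.77 ± 0.30 in the second.

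For both mucin scaffolds every LSD1i library lay above every NT library, by small margins and without a call. Selplg was at 544, 482, 559 and 565 CPM in LSD1i 1 to LSD1i 4, against 451, 439, 458, 363 and 399 in NT 1 to NT 5. The groups did not overlap, and the log2 fold change was 0.35 ± 0.09, with 0.19 ± 0.16 and 0.46 ± 0.12 in the first and second batch. Spn was at 522, 478, 556 and 459 CPM in LSD1i 1 to LSD1i 4, against 427, 437, 457, 395 and 412 in NT 1 to NT 5. Here LSD1i 4 and NT 3 nearly touched, and the log2 fold change was 0.24 ± 0.08. In all, the groups did not overlap for 5 of the 10 genes, LSD1i lying above NT each time. This was so for 4.41% of all tested genes, and 7.86% did not overlap in either direction.

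**Figure D2:**
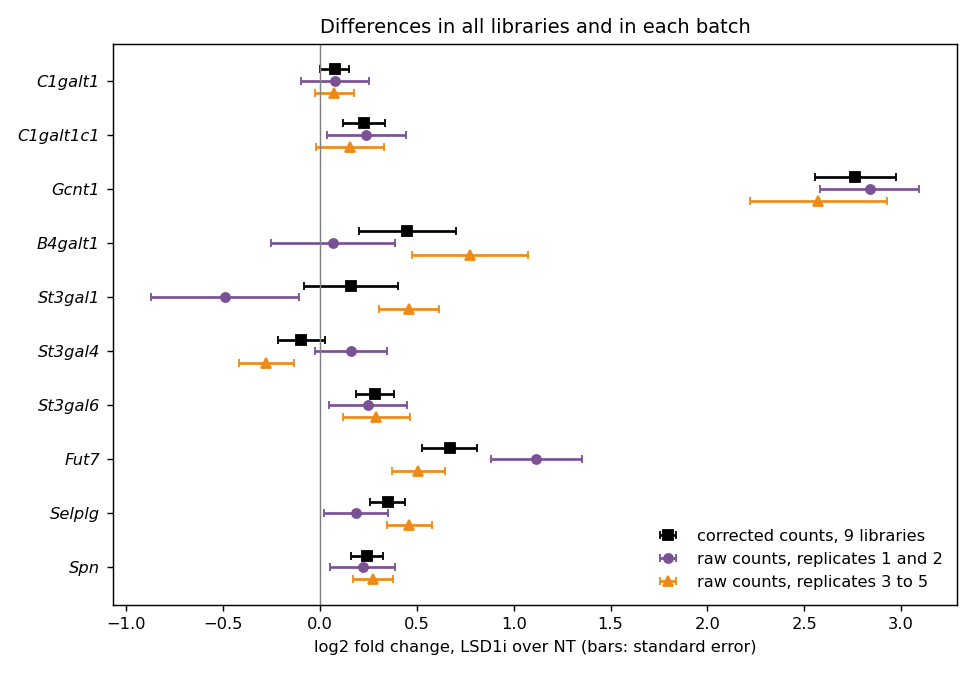
Log2 fold change of LSD1i over NT for the 10 genes, in the order of the biosynthetic route, with standard errors: black squares for the batch-corrected counts of all 9 libraries, circles for raw counts of replicates 1 and 2, and triangles for raw counts of replicates 3 to 5, all with the corrected table's names. Gcnt1 lies at 2.57 to 2.84 in the batches, while St3gal1 and St3gal4 lie on opposite sides of 0 in them.

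The authors' batch correction moved these genes by different amounts. Raw over corrected counts were 1.22 to 1.25 for Selplg and 1.22 to 1.29 for Spn in the first batch, against 0.833 to 0.863 and 0.791 to 0.881 in the second. For St3gal1 the ratio was 0.670 to 0.839 in the first batch and 1.09 to 1.48 in the second. C1galt1 was hardly touched, at 0.994 to 0.996 in the first and 1.00 in the second. Raw Selplg was at 508 to 631 CPM in the first batch and 320 to 477 in the second, so that before correction the batches did not overlap.

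Whether the difference between LSD1i and NT itself differed between the batches was tested as an interaction in raw counts carrying the corrected table's names, a contrast that did not choose the genes. With edgeR's quasi-likelihood test, 0 of the 10 genes and 0% of the 11916 tested genes passed. At an unadjusted p under 0.05 there were 581 genes (4.88%), among them Fut7 as the only 1 of the 10, with a difference of −0.64 ± 0.27 (second minus first batch, log2). The values were 0.92 ± 0.43 for St3gal1 and −0.30 ± 0.51 for Gcnt1. For St3gal1 the test passed without the low-count filter (adjusted p = 0.0382) and without NT 2 (adjusted p = 0.0265), settings in which 320 of 20052 and 401 of 11880 genes passed. Without NT 1 the difference was 0.20 for St3gal1 and −0.38 for Fut7, and neither passed.

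When raw counts were fitted with the batch as a term, Gcnt1 (2.69 ± 0.25) and Fut7 (0.79 ± 0.16) were again the only called genes of the 10, where 1.85% of tested genes were called. In the first batch alone Gcnt1 was called and Fut7 was not, where 0.0676% of genes were called, and so it was in the second, where 0.969% were.

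Beyond the 10 genes, 70 other tested genes of the glycosylation lists were examined, of which 5 rose, 2 fell and 63 did not pass, beside 3.31% of all tested genes called. Their median log2 fold change was 0.04. The groups did not overlap for 12 of the 70, beside 7.86% of all tested genes. Another 32 listed genes stayed below the low-count filter, among them Gcnt3, the mucin-type branching enzyme of epithelia.

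Of the sialyltransferases outside the 10 genes, 2 of 9 rose and 0 fell, and neither makes the α2,3 linkage of sialyl Lewis X. St6gal1, which adds α2,6-linked sialic acid to galactose, mostly on N-glycans, was at 185, 146, 231 and 220 CPM in LSD1i 1 to LSD1i 4, against 89.9, 50.9, 57.7, 35.8 and 65.4 in NT 1 to NT 5. No library overlapped, and the log2 fold change was 1.70 ± 0.23 (adjusted p = 0.00155), with 1.16 and 2.05 in the first and second batch. St6gal1 is known from B cells, so their markers stand beside it: the 7 B cell markers summed to 10.2 to 11.9 CPM in LSD1i and 11.9 to 13.1 in NT, and Ms4a1, Cd79a and Pax5 never exceeded 4 counts. Of 3 tested B cell markers 1 rose, Cd22, to 1.17 to 2.21 CPM in LSD1i against 0 to 0.311 in NT, and Cd79b and Ebf1 fell. The part of such cells in the St6gal1 result was not tested. St8sia4, which makes polysialic acid, had 116 ± 13.7 CPM in LSD1i and 59.1 ± 6.31 in NT (0.97 ± 0.10, adjusted p = 0.000378). St6galnac4, which sialylates the core GalNAc, was at 51.9 CPM in LSD1i and 69.4 in NT and did not pass (−0.42 ± 0.22).

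At the first step of the route, 1 of 11 tested GalNAc transferases fell and 0 rose. Galnt10 was at 5.85, 5.26, 6.38 and 5.43 CPM in LSD1i 1 to LSD1i 4, against 14.98, 11.8, 14.1, 13.8 and 10.7 in NT 1 to NT 5. Its highest LSD1i library was well below its lowest NT library (log2 fold change −1.19 ± 0.13, adjusted p = 0.000377). The most abundant of the family, Galnt6 (0.29 ± 0.10) and Galnt1 (0.02 ± 0.07), did not pass, and Galnt14, at 0.394 CPM in LSD1i and 1.74 in NT, did not either (−2.14 ± 0.55, adjusted p = 0.0590). The other branching genes in the core list, Gcnt2 (0.61 ± 0.54) and Gcnt4 (−0.35 ± 0.45), had low and scattered values and did not pass. Of 7 further chain extension genes 0 passed, B3gnt2 (−0.07 ± 0.10) and B4galt5 (0.11 ± 0.14) being the most abundant.

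Among 5 fucosyltransferases other than Fut7, 0 passed. Fut4, the other α1,3-fucosyltransferase of leukocytes, had 6.52 CPM in LSD1i and 4.59 in NT (0.51 ± 0.21). Fut8 (0.37 ± 0.13) and Fut11 (0.28 ± 0.11) were not called either, and the protein fucosyltransferases Pofut1 (0.00 ± 0.09) and Pofut2 (0.04 ± 0.10) lay near 0. Of the sulfotransferases 0 of 3 passed, among them Tpst2 (0.23 ± 0.08) and Tpst1 (0.07 ± 0.16), which sulfate tyrosines of PSGL-1.

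Of 18 genes of sugar nucleotide supply, 1 rose and 0 fell. Uap1, which makes UDP-GlcNAc, the donor that Gcnt1 uses, was at 91.1, 92.0, 93.3 and 85.2 CPM in LSD1i 1 to LSD1i 4, against 56.2, 55.6, 59.9, 56.8 and 52.4 in NT 1 to NT 5. The libraries of each group lay close together and far from the other group (0.69 ± 0.07, adjusted p = 0.000327). Gfpt1, at the head of the same supply route, did not pass (−0.26 ± 0.10), nor did the abundant Galk1 (0.17 ± 0.11) and Nans (−0.03 ± 0.10). The genes for GDP-fucose, Gmds (−0.20 ± 0.10), Tsta3 (0.04 ± 0.08) and its transporter Slc35c1 (−0.26 ± 0.20), did not pass.

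Among scaffolds other than Selplg and Spn, Cd24a, a small mucin-like protein that can bind P-selectin, rose, with 67.9 ± 6.001 CPM in LSD1i and 38.0 ± 8.01 in NT (0.84 ± 0.14, adjusted p = 0.00807). Cd44, a carrier of E-selectin ligands, was at 218 CPM in LSD1i and 200.4 CPM in NT (0.12 ± 0.15) and Ptprc, CD45, at 1778 CPM in LSD1i and 1645 CPM in NT (0.11 ± 0.08), and neither passed. In the N-glycan branching list used for comparison, 0 of 7 rose and 1 fell. Mgat4b was at 5.10 to 5.73 CPM in LSD1i and 7.29 to 9.20 in NT (−0.57 ± 0.11, adjusted p = 0.0179), a call lost when raw counts were fitted with a term for batch (adjusted p = 0.0558) and without LSD1i 1, LSD1i 3 or LSD1i 4 (adjusted p up to 0.0753). The other 6 of the 7 genes called outside the 10 passed in all of these fits.

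**Figure D3:**
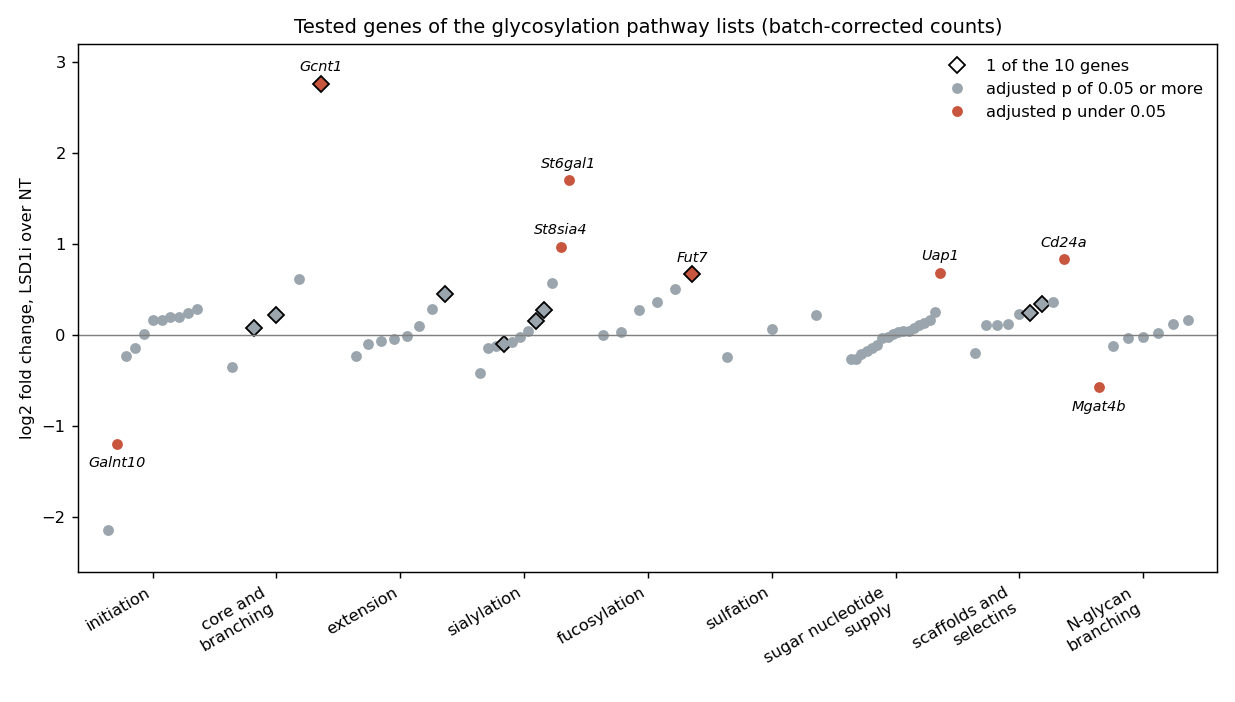
Log2 fold change of LSD1i over NT for tested genes of the pathway lists, grouped along the horizontal axis by list, with diamonds for the 10 genes and red for an adjusted p under 0.05. Gcnt1 (2.76) and St6gal1 (1.70) are the highest, and Galnt10 (−1.19) is the lower of the 2 called below 0.

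The profile of Gcnt1 over the 9 libraries was set beside those of 9826 other genes whose mean log2 CPM reached 2, by the root mean square difference after centring each gene on its own mean. The nearest were Rxra, a nuclear receptor (0.29), Lmna, which encodes lamins A and C (0.35), Armcx2 (0.36), Cdc42bpb, a kinase (0.38) and Maged1 (0.45). All of them share the step between the groups, Rxra averaging 12.1 ± 1.77 CPM in LSD1i and 2.43 ± 0.605 in NT. Choosing genes by nearness over these libraries favours such shared features, here and for Fut7, so they are a description only. The nearest to Fut7 were Hmgn1, a nucleosome-binding protein (0.12), Lgals1, the glycan-binding galectin 1 (0.12) and Pja1, a ubiquitin ligase (0.13). Like Fut7, these 3 had their lowest LSD1i value in LSD1i 3 and their lowest NT value in NT 1 in corrected counts. In raw counts the lowest LSD1i value of Hmgn1 (191 CPM) and Lgals1 (484 CPM) was in LSD1i 1. That of Pja1 and Fut7 stayed in LSD1i 3. Lgals1, at 720 ± 97.6 CPM in LSD1i and 479 ± 92.8 in NT, was just short of the threshold (0.59 ± 0.15, adjusted p = 0.0531).

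**Figure D4:**
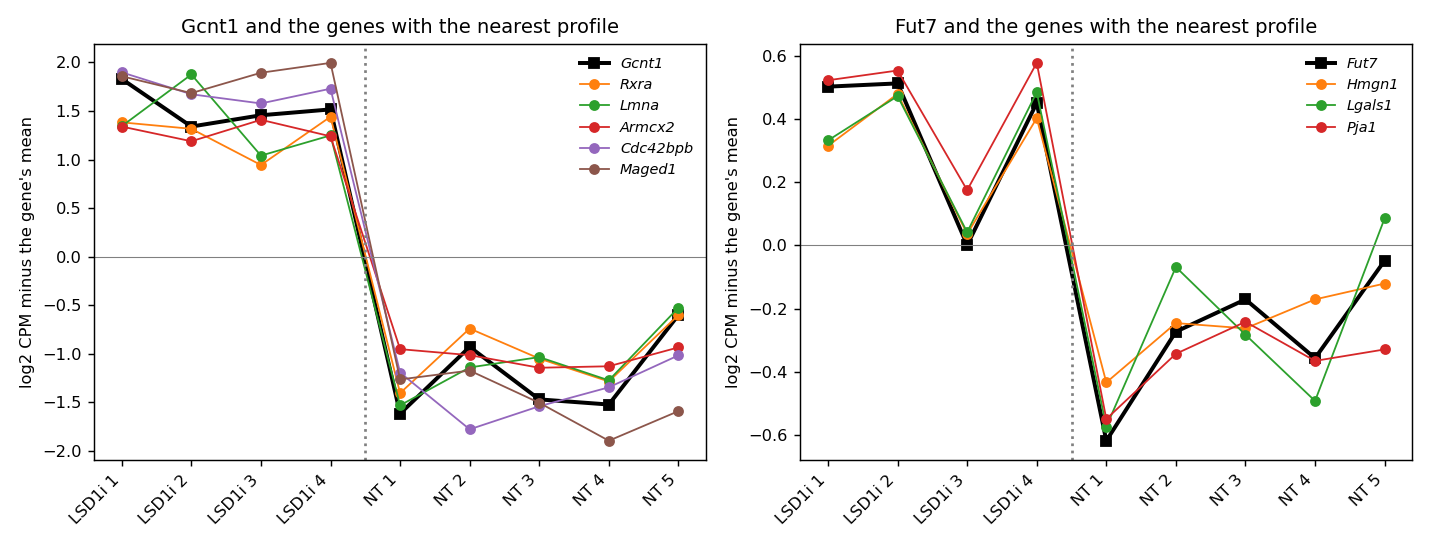
Log2 CPM minus each gene's own mean over the 9 libraries, for Gcnt1 with its 5 nearest genes (left) and Fut7 with its 3 nearest (right), LSD1i libraries left of the dotted line and NT libraries right of it. Values are from corrected counts. The Gcnt1 group steps between the groups, and the Fut7 group shares the dip in LSD1i 3 and the low value in NT 1. The genes were chosen for this likeness.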

How the data were processed

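The authors deposited raw counts, whole-number reads per gene symbol, and estimated counts after a batch correction (the sources used here name no method). In another table the authors deposited a comparison holding p-values, a test score (F) and log2 values for fold change and mean level. Only its fold changes, false discovery rates and marks are quoted. Per the submitters' processing notes, STAR, featureCounts, edgeR and mm9 were used, and per the labels' protocols a SMARTER kit turned total RNA into libraries. The 10 genes and the pathway and marker lists were chosen with earlier results of these data known.

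Corrected counts, already whole, went into edgeR 4.0.16 under R 4.3.3, with its quasi-likelihood test, TMM scaling, the low-count filter by group (minimum count 10, total 15) and Benjamini-Hochberg adjustment over all tested genes at 0.05. The same steps were run on simulated data. No batch effect was simulated or removed in the corrected counts there, so that run cannot show whether the errors below are too small. The main fit held group alone and took no account of the batch effect that the authors had already estimated and removed. Its standard errors and p-values may therefore be too small. In raw counts with a term for batch the standard error of Gcnt1 was 0.25 against 0.21 in the main fit. For Fut7 it was 0.16 against 0.14. A standard error is the unshrunk coefficient divided by the root of F, and CPM errors are SDs. Libraries of the tables were paired by genes that were 0 in only 1 of them: each had a partner with 0 such genes, the next best differing at 1336 or more. Text names are the 10 genes, called pathway genes, the 2 most abundant of each list and nearest profiles, plus others named after their values were seen. A few genes that these rules or the marker lists include are not reported here. All pairs of libraries within a group differed beyond sampling noise (lowest chi-square per degree of freedom 7.43). Alternatives were other scalings, filters and tools (limma 3.58.1, DESeq2 1.42.0), a replicate block, raw counts, and leaving out each library. Gcnt1 in NT rests on 39 to 138 raw reads per library.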

Additional observations from a re-analysis of the deposited data

Results flagged for a closer look

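A library far from the others of its group was sought in 64 groups of CPM values. In 5 of these 64 groups one was found, where chance flags about 1 in 20 groups. All 5 were in LSD1i groups, in the libraries LSD1i 2 or LSD1i 3. The groups share libraries and are not independent, so the count was not tested against chance. Fut7 in LSD1i 3 was at 14.0 CPM, below the other LSD1i libraries at 19.2 to 20.1. Mgat1, the first N-glycan branching enzyme, was also low in LSD1i 3, at 72.5 CPM against 86.7 to 87.7. In LSD1i 2, Gcnt4 was at 6.09 CPM against 1.81 to 2.48, Gcnt2 at 1.496 CPM against 0.497 to 0.614, and Man2a1 at 82.8 CPM against 86.6 to 87.2 in the other LSD1i libraries. These are corrected values. In raw counts Fut7 was at 14.4 CPM in LSD1i 3 and 16.6 in LSD1i 4, and Mgat1 at 60.1 and 72.4. Both were higher in LSD1i 1 and LSD1i 2 (22.4 and 103 CPM). Raw Gcnt2 in LSD1i 2, at 0.722 CPM, lay within the 0.308 to 0.764 of the others. So did raw Man2a1, at 99.9 CPM within 71.9 to 101. Raw Gcnt4 in LSD1i 2 still stood apart, at 5.77 CPM against 1.70 to 2.36.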

How the results depend on the processing

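The count of 397 called genes became 656 with DESeq2 and 1059 with limma voom. In raw counts it was 220 with a term for batch, and 8 and 117 in the first and second batch alone. Under the raw table's names, without a term for batch, it was 0, where 172 genes had an unadjusted p under 0.05. Leaving out 1 library gave 219 to 432, with 228, 251 and 219 without LSD1i 1, LSD1i 3 and LSD1i 4. Of the 10 genes, 2 were called, 1 in each batch alone, 0 under the raw names, 1 to 2 without 1 library, and 3 with DESeq2 and voom, which added Selplg. The 7 called pathway genes became 12 with voom, 3 in the second batch, and 0 in the first batch and under the raw names. Under the raw names the values of Fut7 (−0.28 ± 0.30) and Mgat4b (0.14 ± 0.35) had the opposite sign, each smaller than its standard error. The interaction with batch was called for 1 of the 10 genes without the low-count filter, and for 0 to 1 when a library was left out. The cause of these shifts was not tested. RLE scaling called 391 genes and the same 2 of the 10. With the replicate block 326 genes were called (352 in raw counts), and Mgat4b was not (adjusted p = 0.0701 and 0.0611). Same-numbered libraries deviated together (r over 0.1) in 1 of 4 pairs, and 0 of 4 LSD1i libraries were nearest to the NT library of their number. So few pairs cannot settle whether libraries of the same number were paired. Gcnt1 in NT rests on few reads.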
